A study of Mus musculus with 10 samples.

Results

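Aquaporins are membrane channels that pass water down an osmotic gradient. *Aqp1*, *Aqp3*, *Aqp4*, *Aqp5*, *Aqp8*, *Aqp9* and *Aqp11*, the 7 genes described here, were chosen by name and found through their Ensembl identifiers among the 45706 genes of the count table. All 7 were among the 25146 genes that averaged 1 count or more per uterus, which were the genes tested. At gestation day (GD) 3.5, before the embryo implants, RNA was sequenced from whole uteri of 5 *Arid1a f/f* mice, the controls, and from those of 5 *Ltf iCre/+ Arid1a f/f* mice. The *Ltf iCre/+ Arid1a f/f* uteri are called Cre-positive for short. Both genotypes carried floxed *Arid1a* alleles, and the control mice had no Cre. In Cre-positive mice the recombinase is made from the lactoferrin (*Ltf*) locus in the endometrial epithelium, and the *Ltf* locus is also known to be used by cells of the myeloid lineage. The females were 12 to 15 weeks old, on a mixed 129S1/SvImJ, 129S6/SvEvTac, 129P2/OlaHsd and C57BL/6 background, and they had been mated. The comparison asks whether the level of each channel differed between the genotypes.

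Water-selective aquaporins, among them *Aqp1*, *Aqp4* and *Aqp5*, carry water across endothelia and epithelia. The aquaglyceroporins, among them *Aqp3* and *Aqp9*, also pass glycerol and other small solutes, and *Aqp8* passes water and small molecules such as ammonia and hydrogen peroxide. *Aqp11* is a distant relative that resides largely in the endoplasmic reticulum. In the rodent uterus the lumen loses its fluid and closes before implantation, and estrogen and progesterone are known to regulate several aquaporins there.

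Between 59296537 and 72702411 counts were assigned to genes per uterus. *Arid1a* was 213 ± 22.9 CPM (counts relative to the library size, which was scaled by the trimmed mean of M-values; mean ± SD, n = 5) in controls and 185 ± 15.9 CPM in those with Cre, a log2 fold change of -0.20 (SE 0.09) with an adjusted p of 0.201 in edgeR, in RNA of the whole organ. The Cre-positive uteri 1 and 5 stood apart on the first principal component of the 500 most variable genes, at 49 and 65.6 against 9.36 to 20.7 in the other 3 Cre-positive uteri and -38.5 to -15.5 in controls. Values without both of these uteri, a comparison chosen after the values were seen, are given where they bear on a member or change a count. Markers of luminal epithelium, stroma, myometrium and endothelium were present in every uterus.

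Of the 7 aquaporins, *Aqp1* fell in Cre-positive uteri and no other passed the threshold of 0.05 on the adjusted p from edgeR (quasi-likelihood test). *Aqp1* was 1.75-fold lower. Against this count of 1 lower member, 4.51% of all genes tested were called lower and 5.19% higher. None of the 7 was called higher by edgeR, although 2 of those higher, *Aqp3* and *Aqp5*, had an unadjusted p under 0.05. DESeq2 called 1 member higher (*Aqp3*) and 2 lower (*Aqp1* and *Aqp8*), where it called 8.47% of all genes higher and 7.84% lower. By sign, 4 members were higher (*Aqp3*, *Aqp4*, *Aqp5*, *Aqp9*) and 3 lower (*Aqp1*, *Aqp8*, *Aqp11*). The median log2 fold change of the 7 was 0.46, against 0.03 over all genes tested. In RNA of a whole uterus, fewer cells of a type and less RNA per cell cannot be told apart.

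**Figure D1:**
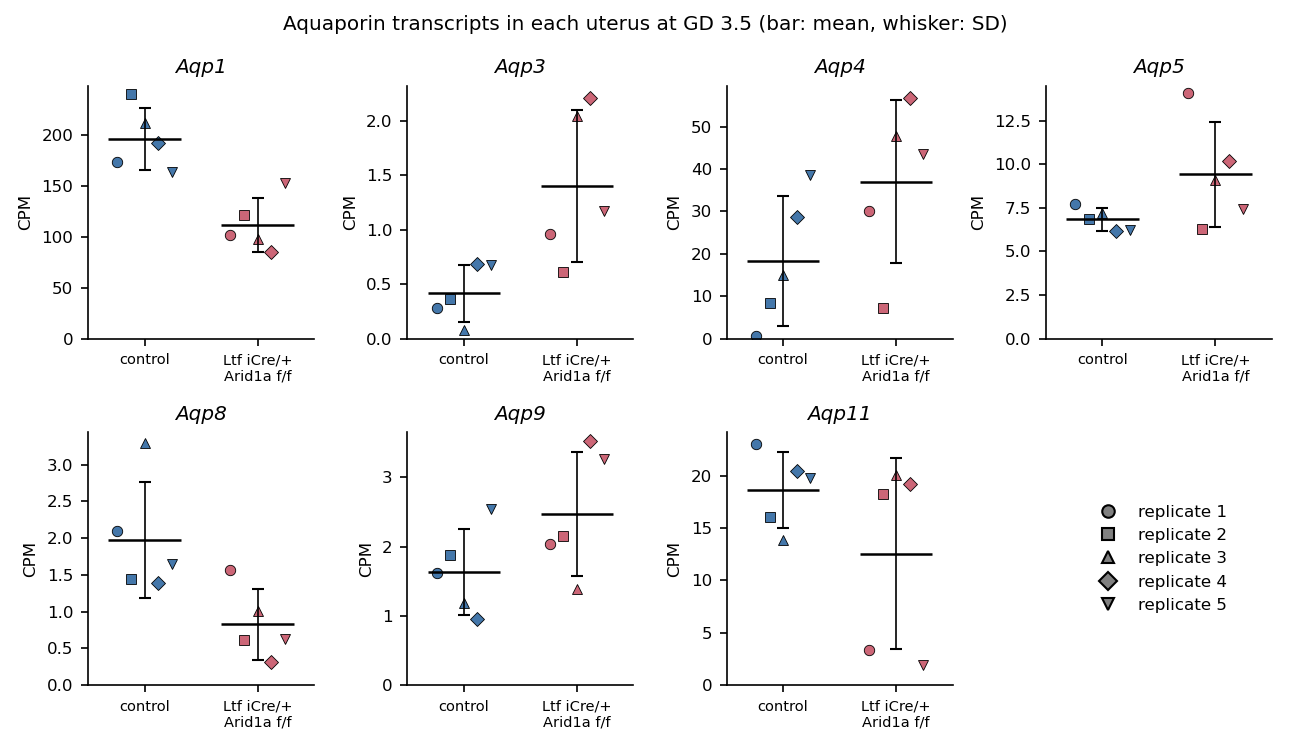
CPM of each aquaporin on a linear axis in 5 control (blue) and 5 *Ltf iCre/+ Arid1a f/f* (red) uteri, with 1 point per uterus and the marker shape giving the replicate. *Aqp1* is the member whose genotypes do not overlap, at 163 to 240 CPM in controls against 85.0 to 153 CPM, while *Aqp4* spreads widely in both genotypes and *Aqp11* splits within the *Ltf iCre/+ Arid1a f/f* uteri.

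Levels were compared between genes as CPM per kb of merged exon length. *Aqp1* was the most abundant member in controls at 74.5 ± 11.7 CPM per kb, far above the rest. *Aqp4* (2.92 ± 2.46), *Aqp5* (2.63 ± 0.254) and *Aqp11* (1.99 ± 0.389) followed in CPM per kb. The *Aqp4* uteri, from 0.0853 to 6.18 CPM per kb, enclosed every uterus of *Aqp5* (2.37 to 2.98) and of *Aqp11* (1.48 to 2.46), so the order of these neighbours lies within their spread. *Aqp8* came next at 1.25 ± 0.497 CPM per kb, and its range of 0.88 to 2.08 overlapped that of *Aqp11*. *Aqp9* (0.395 ± 0.15) and *Aqp3* (0.227 ± 0.143) were lowest in controls, and their ranges of 0.23 to 0.613 and 0.0428 to 0.373 CPM per kb overlapped each other. In Cre-positive uteri *Aqp1* remained highest at 42.5 ± 10.1 CPM per kb, while *Aqp3* at 0.764 ± 0.381, *Aqp9* at 0.597 ± 0.216 and *Aqp8* at 0.523 ± 0.305 CPM per kb lay close together.

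**Figure D2:**
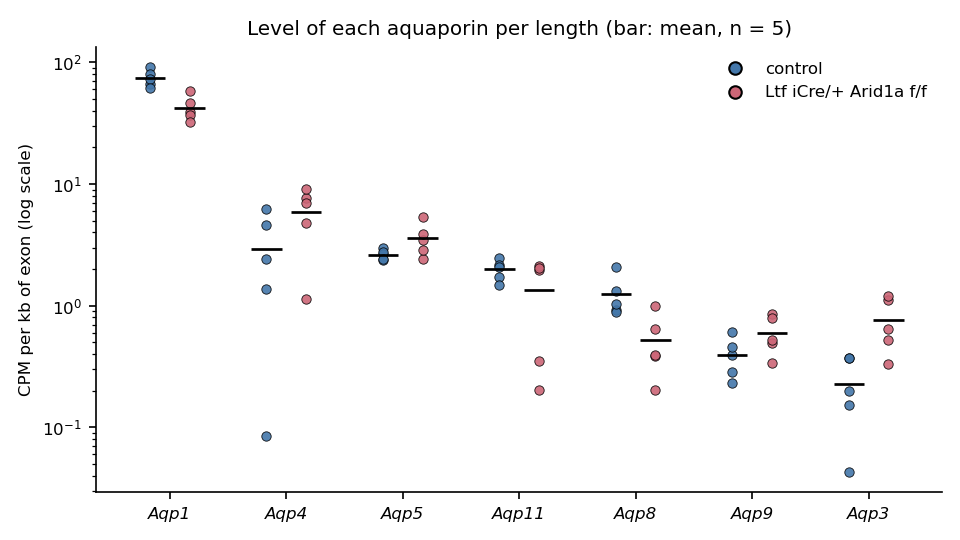
Level of the 7 aquaporins in CPM per kb of exon on a log axis, with a point per uterus in controls (blue) and *Ltf iCre/+ Arid1a f/f* uteri (red). *Aqp1* lies above every other member in both genotypes, and the lowest members, *Aqp8*, *Aqp9* and *Aqp3*, change order between the genotypes. Every blue point of *Aqp8* lies above those of *Aqp9* and *Aqp3*, whose blue ranges overlap. The red ranges of all these lowest members overlap one another.

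The promoters of 4 members are shown because these were the 3 genes whose CPM separated the genotypes best, *Aqp1*, *Aqp3* and *Aqp8*, and the gene that split the Cre-positive uteri, *Aqp11*. Each stretch runs from 250 bases before to 50 bases after a start site in RefSeq (GRCm38.p6), 5′ to 3′ on the strand of the gene. Capitals mark the only match, in these 4, to the motifs searched on both strands, the nuclear receptor core motif AGGTCA (here as its reverse complement), the steroid receptor core motif AGAACA, the AP-1 motif TGANTCA and the STAT motif TTCNNNGAA.
Aqp1 (chr6:55336049-55336348, + strand): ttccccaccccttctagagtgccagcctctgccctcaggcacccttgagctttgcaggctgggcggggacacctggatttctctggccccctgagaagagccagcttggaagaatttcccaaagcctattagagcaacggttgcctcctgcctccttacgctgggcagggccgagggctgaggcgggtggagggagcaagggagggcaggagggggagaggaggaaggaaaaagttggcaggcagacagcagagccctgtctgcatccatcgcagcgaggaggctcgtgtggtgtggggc
Aqp3 (chr4:41098134-41098433, - strand): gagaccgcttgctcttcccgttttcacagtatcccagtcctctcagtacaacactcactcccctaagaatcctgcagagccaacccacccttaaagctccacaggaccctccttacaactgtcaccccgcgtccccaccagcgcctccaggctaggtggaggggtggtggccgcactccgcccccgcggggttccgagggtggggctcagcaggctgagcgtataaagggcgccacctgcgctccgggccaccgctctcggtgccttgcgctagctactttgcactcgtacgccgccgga
Aqp8 (chr7:123462044-123462343, + strand): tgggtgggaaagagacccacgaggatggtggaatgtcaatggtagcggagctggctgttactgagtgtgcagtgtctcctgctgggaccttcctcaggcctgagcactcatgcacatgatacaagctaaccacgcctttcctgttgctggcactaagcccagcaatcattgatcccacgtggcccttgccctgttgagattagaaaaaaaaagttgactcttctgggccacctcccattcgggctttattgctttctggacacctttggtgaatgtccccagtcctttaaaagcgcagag
Aqp11 (chr7:97738198-97738497, - strand): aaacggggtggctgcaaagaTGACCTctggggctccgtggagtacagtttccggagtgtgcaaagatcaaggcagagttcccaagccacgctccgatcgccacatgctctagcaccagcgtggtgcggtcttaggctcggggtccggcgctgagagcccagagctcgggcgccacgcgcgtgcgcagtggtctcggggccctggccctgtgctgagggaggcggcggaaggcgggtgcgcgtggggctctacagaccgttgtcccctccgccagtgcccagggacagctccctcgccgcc

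The 4 sequences differed in base composition. The *Aqp11* stretch had the most CpG dinucleotides, 27 at 68.0% GC, and that of *Aqp3* had 21 at 64.0% GC. *Aqp1* had 8 CpG at 62.7% GC, and *Aqp8* had 6 at 52.0% GC. Over 32544 RefSeq promoters of the same length, AGGTCA was found in 16.2%, AGAACA in 18.9%, TGANTCA in 7.79% and TTCNNNGAA in 8.33%. The AGGTCA match of *Aqp11* lay at position -230 from the start site. RefSeq promoters were read for 6 of the 7 members. *Aqp4* has none here because promoters on chromosome 18, where it lies, were left out of this search. That of *Aqp5* held none of the motifs, and *Aqp9* had 1 AGAACA match in one of its promoters and 1 TGANTCA match in the other. The lack of a match says only that these letters are not in these windows.

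*Aqp1* (ENSMUSG00000004655, chromosome 6, 55336432 to 55348555, + strand, GRCm38) encodes the water channel of capillary endothelium and red blood cells. Its level was 173, 240, 211, 192 and 163 CPM in control uteri 1 to 5, and 102, 121, 97.6, 85.0 and 153 CPM in Cre-positive uteri 1 to 5. The genotypes did not overlap, the Cre-positive uteri all being lower and uterus 5 the nearest to the controls. Of all genes tested, 5.16% were separated in this way downward and 5.53% upward. The means were 196 ± 30.8 and 112 ± 26.4 CPM (SD, n = 5 each), and the log2 fold change was -0.81 (SE 0.16, 95% interval -1.16 to -0.46) and the adjusted p from edgeR was 0.0115. A two-sided exact permutation test gave 0.00794, the smallest p that the 252 arrangements of 5 against 5 uteri allow. *Aqp1* passed the threshold in all 18 alternatives run, with adjusted p from 0.000208 (DESeq2) to 0.0315.

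Endothelial genes were lower beside *Aqp1*. Of 10 endothelial markers, 9 fell and all 10 were lower, with a median log2 fold change of -0.88, against 4.51% of all genes called lower. *Pecam1*, an adhesion molecule of endothelial junctions, fell by 0.93 on the log2 scale (SE 0.13, adjusted p 0.00273, edgeR), *Cdh5*, the endothelial cadherin, by 1.26 (SE 0.20, adjusted p 0.00421, edgeR), and *Tek*, the angiopoietin receptor, by 1.21 (SE 0.12, adjusted p 0.000441, edgeR). The summed level of the 10 markers was 898 to 1266 CPM in controls and 448 to 661 CPM in Cre-positive uteri, without overlap. Without Cre-positive uteri 1 and 5, 8 of the 10 were called lower. Markers of the red blood cell, which also carries *Aqp1*, summed to 20.8 to 79.3 CPM in controls and 21.5 to 102 CPM in Cre-positive uteri, and none of 7 was called by edgeR or DESeq2 or had an unadjusted p under 0.05.

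Set against the summed endothelial markers, *Aqp1* stood at 14.5, 21.2, 16.7, 19.2 and 18.1% in control uteri 1 to 5 and at 18.1, 18.3, 16.2, 15.8 and 34.2% in Cre-positive uteri 1 to 5. The Cre-positive uteri 1 to 4 lay within the range of the controls, and uterus 5 lay above all others. The means were 17.9 ± 2.51% and 20.5 ± 7.72% (SD, n = 5 each), a log2 difference of 0.14 (two-sided exact permutation p = 0.698). Without Cre-positive uterus 5 its mean was 17.1 ± 1.28% and the log2 difference was -0.06 (two-sided exact permutation p = 0.611). The part of the endothelial markers in the fall of *Aqp1* was not tested.

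Smooth muscle of the uterus is also known to hold *Aqp1*. The 8 myometrial markers were all lower, with a median log2 fold change of -0.48, and none was called by edgeR, although 2 had an unadjusted p under 0.05 and DESeq2 called 1. They summed to 6525, 11447, 10358, 8169 and 6694 CPM in control uteri 1 to 5 and to 7616, 9183, 4683, 5010 and 3427 CPM in Cre-positive uteri 1 to 5, and the genotypes overlapped. Control uteri 2 and 3 were the highest of the controls both for this sum and for *Aqp1*. Cre-positive uterus 5 was the lowest of all for this sum and the highest Cre-positive uterus for *Aqp1*. The endothelial sum was likewise lowest of all in Cre-positive uterus 5, at 448 CPM. Among controls it was highest in uterus 3 (1266 CPM) and next in uterus 1 (1190 CPM). The part of the myometrium in the fall of *Aqp1* was not tested.

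**Figure D3:**
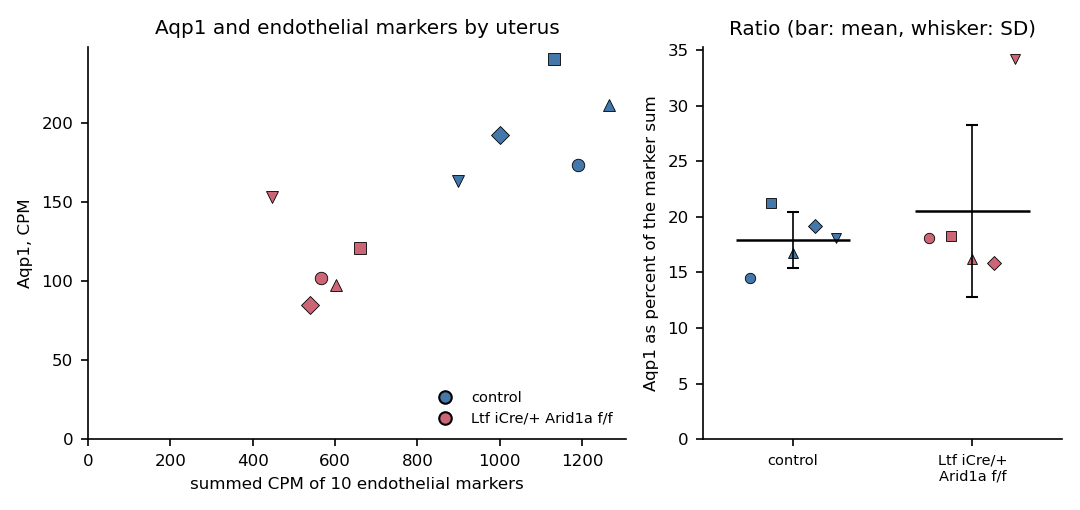
*Aqp1* in CPM against the summed CPM of 10 endothelial markers, with 1 point per uterus, controls in blue and *Ltf iCre/+ Arid1a f/f* uteri in red, marker shapes giving the replicate. Both measures are lower in every *Ltf iCre/+ Arid1a f/f* uterus than in every control, and uterus 5 has more *Aqp1* for its endothelial markers (34.2%) than any other uterus.

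*Aqp4* (ENSMUSG00000024411, chromosome 18), best known as the water channel of astrocytes in the brain, was the most variable member in controls. It read 0.531, 8.45, 15, 28.6 and 38.5 CPM in control uteri 1 to 5 and 30.0, 7.10, 47.7, 56.8 and 43.6 CPM in Cre-positive uteri 1 to 5. The groups overlapped widely, with control uterus 1 far below all others and 3 Cre-positive uteri above every control. The control uteri spanned 72.5-fold, and 0.249% of 19282 genes averaging 10 counts or more had a larger SD of log2 CPM among controls. The Cre-positive uteri spanned 8.01-fold. The means of 18.2 ± 15.3 and 37.0 ± 19.3 CPM (SD, n = 5 each) gave a log2 fold change of 1.02 (SE 0.78, 95% interval -0.69 to 2.74) with an adjusted p of 0.458 in edgeR, so that the difference was smaller than the spread between uteri. Leaving out each uterus in turn gave 0.71 to 1.49. Markers of nerve and glia were not called in either direction by edgeR or DESeq2, and 1 of 7 had an unadjusted p under 0.05.

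*Aqp5* (ENSMUSG00000044217, chromosome 15, 99590782 to 99594829, + strand) encodes the apical water channel of secretory epithelia. Control uteri 1 to 5 read 7.73, 6.89, 7.18, 6.16 and 6.23 CPM, the tightest group of any member, and Cre-positive uteri 1 to 5 read 14.1, 6.27, 9.11, 10.2 and 7.44 CPM. The Cre-positive uteri 1, 3 and 4 lay above every control and uteri 2 and 5 among them. The means were 6.84 ± 0.66 and 9.41 ± 3.00 CPM (SD, n = 5 each), and the log2 fold change of 0.46 (SE 0.20, 95% interval 0.02 to 0.91) did not pass the threshold, with an adjusted p of 0.176 in edgeR and a two-sided exact permutation p of 0.0794. Without Cre-positive uterus 1, the highest, it was 0.27.

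Luminal epithelial markers moved the same way as *Aqp5*. Of 10, 7 rose, against 5.19% of all genes called higher, and 6 were called higher without Cre-positive uteri 1 and 5. The sum of the 10 was 864 to 1145 CPM in controls against 1255 to 2716 CPM in Cre-positive uteri, with the highest value in uterus 1, which was also the highest for *Aqp5*. As a percentage of that sum, *Aqp5* was 0.678 ± 0.111% in controls and 0.548 ± 0.141% in Cre-positive uteri (SD, n = 5 each), with a two-sided exact permutation p of 0.143. The part of the epithelial markers in the level of *Aqp5* was not tested.

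*Aqp8* (ENSMUSG00000030762, chromosome 7, 123462291 to 123468004, + strand) was low in all uteri. It read 2.10, 1.45, 3.29, 1.39 and 1.65 CPM in control uteri 1 to 5 and 1.57, 0.608, 1.01, 0.32 and 0.622 CPM in Cre-positive uteri 1 to 5. Of the Cre-positive uteri, 4 lay below every control, and uterus 1 lay within the controls. The means were 1.98 ± 0.785 and 0.826 ± 0.483 CPM (SD, n = 5 each), 2.39-fold lower in the fit. The log2 fold change of -1.26 (SE 0.41, 95% interval -2.15 to -0.36) missed the threshold in edgeR, with an adjusted p of 0.0749, and the two-sided exact permutation p was 0.0238. The call turned on the setting, since *Aqp8* passed in 4 of 18 alternatives (adjusted p 0.0142 to 0.171 over all of them). These were DESeq2 (0.0142), the omission of Cre-positive uterus 1 (log2 fold change -1.63, adjusted p 0.0283, edgeR), the omission of uteri 1 and 5 (-1.61, adjusted p 0.0367, edgeR) and the fit with the replicate number as a block (-1.37, adjusted p 0.0346, edgeR).

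Gland and endothelial markers were both lower beside *Aqp8*. All 8 gland markers were lower, with a median log2 fold change of -1.93, but only *Foxa2*, a transcription factor needed to form the glands, was called. The gland sum was 97.8 to 148 CPM in controls and 34.2 to 55.9 CPM in Cre-positive uteri. Without Cre-positive uteri 1 and 5, 6 of the 8 were called lower. As a percentage of the gland sum *Aqp8* was 1.76 ± 0.796% in controls and 1.98 ± 1.53% in Cre-positive uteri, and as a percentage of the endothelial sum it was 0.177 ± 0.0519% and 0.147 ± 0.0837% (SD, n = 5 each). The two-sided exact permutation p was 0.96 for the first ratio and 0.365 for the second. The part of either cell type in the level of *Aqp8* was not tested.

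*Aqp3* (ENSMUSG00000028435, chromosome 4, 41092722 to 41098183, - strand), an aquaglyceroporin of basolateral membranes in skin and kidney epithelium, had the largest fold change of the 7 and the lowest level in controls. The count table held 20, 26, 5, 48 and 47 counts in control uteri 1 to 5 and 61, 36, 125, 152 and 81 counts in Cre-positive uteri 1 to 5. In CPM these were 0.28, 0.362, 0.0783, 0.682 and 0.675 in controls and 0.957, 0.608, 2.04, 2.21 and 1.17 in Cre-positive uteri. Of the Cre-positive uteri, 4 lay above every control, and uterus 2 lay within the controls. The means were 0.415 ± 0.261 and 1.40 ± 0.697 CPM (SD, n = 5 each), and the log2 fold change of 1.74 (SE 0.53, 95% interval 0.59 to 2.89) had an adjusted p of 0.0588 in edgeR and a two-sided exact permutation p of 0.0238. It passed in 2 of 18 alternatives, DESeq2 (adjusted p 0.00621) and the omission of Cre-positive uterus 2 (0.0439 in edgeR), with adjusted p from 0.00621 to 0.13 over all of them.

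*Aqp9* (ENSMUSG00000032204, chromosome 9, 71110659 to 71168682, - strand), an aquaglyceroporin of liver and leukocytes, was low as well. Control uteri 1 to 5 read 1.62, 1.88, 1.19, 0.951 and 2.54 CPM, and Cre-positive uteri 1 to 5 read 2.04, 2.15, 1.39, 3.52 and 3.27 CPM. The Cre-positive uteri 4 and 5 lay above every control and the other 3 among them. The means were 1.64 ± 0.622 and 2.47 ± 0.893 CPM (SD, n = 5 each) and the log2 fold change was 0.59 (SE 0.32, 95% interval -0.11 to 1.3), with an adjusted p of 0.277 in edgeR and a two-sided exact permutation p of 0.135. Neutrophil markers summed to 882 CPM in Cre-positive uterus 5 and to 12.3 to 23.2 CPM in the other 4 Cre-positive uteri, and macrophage markers to 599 CPM in uterus 5 and 249 to 332 CPM in the other 4. *Aqp9* in uterus 5, at 3.27 CPM, was below that of uterus 4, at 3.52 CPM. The part of either cell type in the level of *Aqp9* was not tested.

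**Figure D4:**
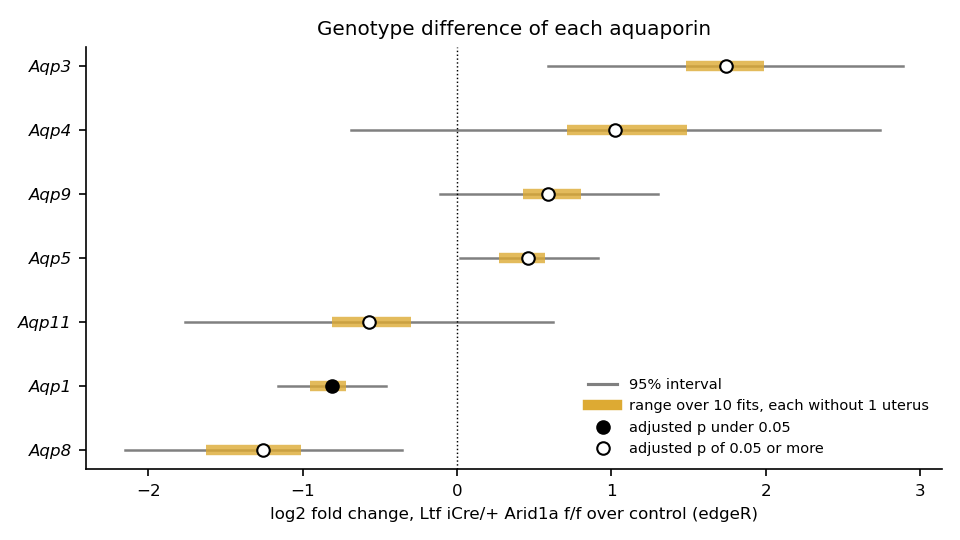
Log2 fold change of each aquaporin, *Ltf iCre/+ Arid1a f/f* over control, with 95% intervals from the edgeR fit. The intervals of *Aqp1*, *Aqp3*, *Aqp5* and *Aqp8* leave out 0 before adjustment over all genes, and *Aqp1* alone passes after it.

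*Aqp11* (ENSMUSG00000042797, chromosome 7, 97724006 to 97738289, - strand) split the Cre-positive uteri. It read 23.1, 16.1, 13.9, 20.5 and 19.8 CPM in control uteri 1 to 5, and 3.31, 18.3, 20.1, 19.2 and 1.92 CPM in Cre-positive uteri 1 to 5. The Cre-positive uteri 2, 3 and 4 lay within the range of the controls, and uteri 1 and 5 lay below every other uterus, so that the Cre-positive group spanned 10.4-fold. The means of 18.7 ± 3.66 and 12.6 ± 9.12 CPM (SD, n = 5 each) gave a log2 fold change of -0.57 (SE 0.54, 95% interval -1.76 to 0.62) with an adjusted p of 0.561 in edgeR and a two-sided exact permutation p of 0.27. Without uteri 1 and 5 the log2 fold change was 0.04 (adjusted p 0.915, edgeR), and with each uterus left out in turn it was -0.81 to -0.30.

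The same 2 uteri stood apart in hormone-regulated genes. On the mean log2 scale relative to the control mean, 11 progesterone targets averaged -2.51 and -1.97 in Cre-positive uteri 1 and 5 and -0.47, -0.42 and -0.14 in uteri 2, 3 and 4. The 11 estrogen targets averaged 3.11 and 3.66 in uteri 1 and 5 and 0.80, 0.49 and 1.65 in uteri 2, 3 and 4. Among them *Ltf*, whose locus is also used by myeloid cells, was 2831 CPM in uterus 5, where neutrophil markers summed to 882 CPM. In uterus 1 *Ltf* was 383 CPM and neutrophil markers summed to 16 CPM. The part of neutrophils in the estrogen target values was not tested. Gland markers averaged -2.82 and -2.41 in uteri 1 and 5 and -1.38, -1.29 and -1.21 in the others. The part of these lists in the level of *Aqp11* was not tested.

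**Figure D5:**
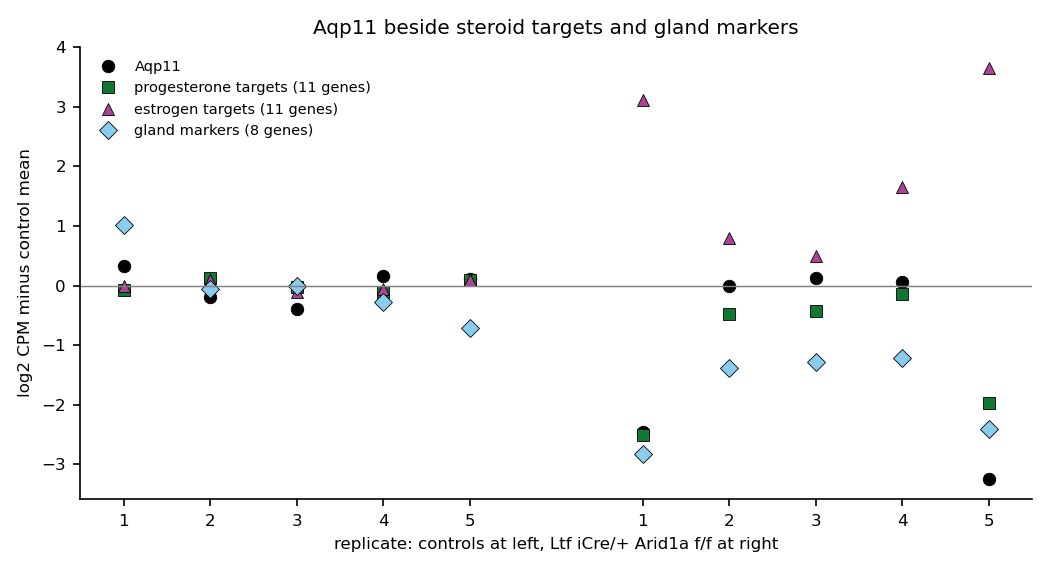
*Aqp11* in log2 CPM relative to the control mean, beside the mean of the progesterone target, estrogen target and gland lists, for each uterus. The *Ltf iCre/+ Arid1a f/f* uteri 1 and 5 are the lowest for *Aqp11* (-2.46 and -3.24) and for the progesterone targets (-2.51 and -1.97), and the highest for the estrogen targets.

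Other aquaporin genes were close to absent. *Mip*, the aquaporin of the eye lens, had 0 counts in every uterus. *Aqp2*, the vasopressin-regulated channel of the kidney, had at most 5 counts in any uterus, *Aqp6* at most 6, *Aqp12* at most 3 and *Aqp7*, the glycerol channel of fat cells, at most 11. Only *Aqp7* had enough counts to be tested (log2 fold change -0.18, SE 1.05, adjusted p 0.94 in edgeR). A gene with 3 counts stood at 0.0418 to 0.0507 CPM, depending on the uterus, and any lower level rested on fewer counts still. *Aqp5* lies 6.2 kb from *Aqp2* and 6.6 kb from *Aqp6*, and *Aqp3* lies 44.6 kb from *Aqp7*. These neighbours on the chromosome were near the limit of detection and *Aqp5* was not, whereas *Aqp3* had only 5 counts in control uterus 3.

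Ion transporters that drive uterine fluid secretion and absorption were tested beside the channels. Of 17 tested, 3 rose and 1 fell, against 5.19% of all genes called higher and 4.51% lower, with a median log2 fold change of 0.00. Without Cre-positive uteri 1 and 5, 4 were called higher and 1 lower. *Cftr*, the chloride channel of fluid secretion, rose from 2.96 ± 1.65 to 40.0 ± 29.3 CPM (SD, n = 5 each), which was 3.75 on the log2 scale (SE 0.57, adjusted p 0.00324, edgeR), with 72.6 and 71.1 CPM in uteri 1 and 5 and 13.4 to 23.3 CPM in the other 3. *Slc9a3r1*, a scaffold that holds Cftr at the membrane, rose by 0.78 (SE 0.17, adjusted p 0.0164, edgeR), and *Kcnn4*, a calcium-activated potassium channel, by 1.82 (SE 0.51, adjusted p 0.0445, edgeR). *Kcnn4* was 21.2 and 18.6 CPM in Cre-positive uteri 1 and 5 and 2.37, 4.38 and 7.73 CPM in uteri 2, 3 and 4, of which uterus 2 lay below every control (2.66 to 3.54 CPM), and its two-sided exact permutation p was 0.0714. *Nedd4l*, a ubiquitin ligase that removes the epithelial sodium channel, fell by 0.37 on the log2 scale (SE 0.08, adjusted p 0.0184, edgeR). An antisense gene shares exons with *Cftr* and another with *Nedd4l*, and their reads cannot be told apart from those of the partner without strand.

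Other genes around water and glycerol moved in small numbers. Of 10 glycerol and urea genes, *Pck1*, an enzyme of gluconeogenesis and glycerol formation, fell by 1.77 on the log2 scale (SE 0.32, adjusted p 0.00806, edgeR) and no other was called. Of 12 osmotic response genes, *Akr1b3*, the aldose reductase that makes sorbitol, rose by 0.48 (SE 0.13, adjusted p 0.0411, edgeR), a call that was lost in 9 of 18 alternatives, among them the omission of any 1 control uterus or of Cre-positive uterus 4 or 5. Of 11 genes of aquaporin trafficking and water balance, *Ezr*, a linker of membrane proteins to actin, rose by 0.63 (SE 0.09, adjusted p 0.00335, edgeR) and *Myo5b*, a motor of recycling vesicles, by 0.84 (SE 0.20, adjusted p 0.0247, edgeR). Without control uterus 2, 3 or 4, 1 of the trafficking genes was called, and without Cre-positive uterus 5, 2 of the glycerol and urea genes. Without Cre-positive uteri 1 and 5 together, 2 trafficking genes were called higher and 1 lower, and 1 glycerol or urea gene each way. These counts compare with 9.7% of all genes called in either direction. *Ezr* shares exons with *Sytl3* on the opposite strand.

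Among 11 estrogen targets, 4 rose (*Ltf*, *Muc1*, *Lcn2* and *Clca1*) and 1 fell (*Clca3a1*), with a median log2 fold change of 2.01. For this and the following lists, 5.19% of all genes were called higher and 4.51% lower. *Ltf*, the gene whose locus carries the Cre, rose by 7.23 (SE 1.36, adjusted p 0.0092, edgeR). Among 11 progesterone targets, *Areg*, a growth factor of the preimplantation epithelium, fell by 4.49 (SE 0.54, adjusted p 0.00131, edgeR) and *Calca*, which encodes calcitonin, by 2.39 (SE 0.66, adjusted p 0.0427, edgeR), both on the log2 scale, with a median of -0.36 for the list. Without any 1 control uterus 1 progesterone target was called, and without Cre-positive uterus 1, 4 were. Without control uterus 2, 3, 4 or 5, 3 estrogen targets were called. Without Cre-positive uteri 1 and 5, 2 progesterone targets were called higher and 3 lower.

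Among the remaining marker lists, 2 of 8 stromal markers were called lower (3 without Cre-positive uteri 1 and 5), with sums of 7533 to 10160 CPM in controls and 6312 to 11950 CPM in Cre-positive uteri. Neutrophil markers had 2 of 9 called higher and 0 in edgeR without uteri 1 and 5, where uterus 5 held the sum of 882 CPM given above and controls summed to 6.04 to 23.2 CPM. Skeletal muscle had 1 of 4 called lower (78.3 to 228 CPM in controls, 69.1 to 115 CPM in Cre-positive uteri), and oviduct 1 higher and 2 lower of 7 (238 to 303 CPM and 166 to 336 CPM). Macrophage, adipocyte and blastocyst markers had 0 called in edgeR, with 3, 3 and 1 genes at an unadjusted p under 0.05 and 1 gene each called by DESeq2. Without uteri 1 and 5, 2 adipocyte markers and 1 blastocyst marker were called higher. Sums in controls and Cre-positive uteri were 140 to 292 and 249 to 599 CPM for macrophage, 1.78 to 2.62 and 1.53 to 3.75 CPM for adipocyte, 21.4 to 34.7 and 15.7 to 34.1 CPM for blastocyst, and 10.6 to 12.6 and 8.7 to 12.4 CPM for nerve and glia markers. Of the marker genes, *Elane*, *Fgf4*, *Lep*, *Myh1* and *Myh4* had at most 3 counts in every uterus.

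The genes most like each member were those with the smallest mean absolute difference in log2 CPM, each gene centred on its mean over the 10 uteri, among 13441 protein-coding genes. For *Aqp1* these were *Thbd* (0.11), *Ecm1* (0.12) and *Ttll7* (0.12), and for *Aqp5* they were *Cdca7*, *Nudt10* and *Noc2l* (0.13 each). *Aqp9* was nearest to *Cd2* (0.23), *Cd244a* (0.24) and *Wdfy4* (0.25), and *Aqp11* to *Hopx* (0.20), *Cpne5* (0.24) and *Ggt6* (0.26). *Aqp8* was nearest to *Fgd5* (0.37), *Sox9* (0.38) and *Aplnr* (0.39). *Aqp4* had no close neighbour, its nearest being *Serpina9* (0.93), *Cd22* (0.98) and *Cd79b* (1.02). *Aqp3* was nearest to *Lat* (0.40), *Cd3d* (0.40) and *Blk* (0.42), genes of lymphocyte receptor signalling. All the genes of a member share the same 10 libraries, and these distances are descriptions.

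Because 2 of these 3 neighbours of *Aqp3*, *Lat* and *Cd3d*, are T cell genes, 12 T cell markers were listed after the values were seen, these 2 among them, so the list partly restates the likeness that prompted it. Of the 12, 7 were called higher, with log2 fold changes of 1.08 (*Zap70*) to 2.39 (*Cd3g*) beside the 1.74 of *Aqp3*, against 5.19% of all genes. *Thy1*, the marker with the most counts, was at -0.20 (SE 0.14, adjusted p 0.402, edgeR). The 12 T cell markers summed to 175 to 207 CPM in controls and 168 to 312 CPM in Cre-positive uteri, so the genotypes overlapped. As a percentage of that sum, *Aqp3* was 0.225 ± 0.154% in controls and 0.567 ± 0.179% in Cre-positive uteri (SD, n = 5 each). The log2 difference was 1.65, with a two-sided exact permutation p of 0.0238 (0.0476 without Cre-positive uterus 5). The sum rests largely on *Thy1*, with up to 12020 counts in a uterus against at most 3840 (*Trdc*) for any other marker. The ratio therefore cannot show whether *Aqp3* rose more than the T cell markers that were called. Against the luminal epithelial sum *Aqp3* was 0.0398 ± 0.0248% in controls and 0.0894 ± 0.0595% in Cre-positive uteri (SD, n = 5 each), with a two-sided exact permutation p of 0.127. The part of either cell type in the level of *Aqp3* was not tested.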

How the data were processed

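RNA from whole uteri of 5 *Arid1a f/f* and 5 *Ltf iCre/+ Arid1a f/f* mice was sequenced by the authors as paired end mRNA libraries, trimmed (Trim Galore 0.6.4, cutadapt 1.18), checked with FastQC 0.11.9, aligned to GRCm38 with STAR 2.7.3a and counted per gene in its GeneCounts mode. The deposited table holds whole-number counts, without normalization. Which annotation release and strand option the counting used is not given in the sources used here. In the annotation used here, no exon of a member overlapped one of another gene.

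Genes averaging 1 count or more were tested with edgeR 4.0.16 in R 4.3.3 (TMM, quasi-likelihood test, genotype alone in the model, Benjamini-Hochberg adjustment over all 25146 genes, threshold 0.05). CPM use TMM library sizes, and log2 CPM a prior count of 2. DESeq2 1.42.0 was an alternative. Other alternatives were the filter, the library scaling, the replicate number as a block and the omission of each uterus. The labels do not say that a shared replicate number marks a litter or day, and correlations of same-numbered uteri (-0.1 to 0.17 over 19282 genes) did not pair them. Each library is labelled as the numbered uterus of a mouse, and no pair of libraries of the same genotype was a duplicate. Pairs across the genotypes were not checked for this. The two-sided exact permutation test was run on log2 CPM of single genes. The procedures were tested on simulated data with 200 changed genes. There edgeR recovered 1% of 1.5-fold, 43% of 2-fold and 78% of 4-fold changes, with 1, 2 and 7 false calls. DESeq2 recovered 34.5%, 66% and 88.5%, with 34, 61 and 52 false calls. In the data themselves edgeR called 2438 genes, and the adjustment is less strict where more genes change. The simulated shares thus do not give the recovery in these data. A member that missed the threshold may still differ between the genotypes. Positions, exon lengths and symbols came from a GENCODE annotation of GRCm38 and promoters from RefSeq (GRCm38.p6). Figures used Python 3.11.15 and matplotlib 3.10.9.

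All 7 members were named in every uterus. Of each pathway list, the genes named were those with an adjusted p under 0.05, at most the 4 of largest fold change (*Clca3a1*, the fifth estrogen target, was named after its values were seen as the 1 that fell), and of each marker list the counts, the summed range and the genes with at most 3 counts in every uterus. The 3 protein-coding genes nearest to each member had a mean of at least 100 counts. The members, the lists and the tests were chosen with earlier results of these data known, so their counts are not independent of them.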

Additional observations from a re-analysis of the deposited data

Results flagged for a closer look

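Uteri far from the other 4 of their genotype were sought in 96 groups of 5 uteri (gap over range above 0.71), of which 9, or 9.38%, stood out. Chance gives about 1 in 20 only for independent values with a normal distribution. The groups here shared genes and uteri, so this share does not measure an excess over chance. *Aqp1* as a percentage of the endothelial markers was 34.2% in Cre-positive uterus 5 against 15.8 to 18.3% in the others. *Aqp7* was 0.154 CPM in control uterus 1 against at most 0.0426 CPM. *Myo5b* was 70.8 CPM in Cre-positive uterus 1 against 29.7 to 40.9 CPM. *Ltf* was 11.7 CPM in control uterus 1 against 2.22 to 3.76 CPM, and 2831 CPM in Cre-positive uterus 5 against 23.6 to 383 CPM. *Clca3a1* was 20.7 CPM in Cre-positive uterus 5 against 6.1 to 8.26 CPM. The summed osmotic response genes were lowest in Cre-positive uterus 4, at 1334 CPM against 1495 to 1558 CPM. Neutrophil markers summed to 882 CPM and macrophage markers to 599 CPM in Cre-positive uterus 5, against 12.3 to 23.2 CPM and 249 to 332 CPM in the others. No member's own CPM stood out by this measure.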

How the results depend on the processing

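Over 18 alternatives for each of the 7 members, 119 of 126 kept the direction and the side of the threshold, 6 passed it where the reported fit did not, and 1 turned the direction (*Aqp11*, 0.04 without Cre-positive uteri 1 and 5). In DESeq2, 1 member was called higher and 2 lower, and 4103 genes in all against 2438, with 2 osmotic response, 5 trafficking and 4 progesterone target genes. With the replicate block, which the numbers do not justify as a pairing, 2 members were called lower, and 2 ion transport, 0 osmotic response, 3 estrogen target and 1 progesterone target genes were called, of 1704 in all. Same-numbered uteri did not correlate above 0.1 in every pair, and 2 of 5 correlated best with their own number. Without Cre-positive uteri 1 and 5, 2 members were called lower, and 2 glycerol, 0 osmotic response and 5 progesterone target genes were called. With each uterus left out in turn, members called higher ranged from 0 to 1 and lower from 1 to 2, ion transport genes from 3 to 5, glycerol genes from 1 to 2, osmotic response genes from 0 to 2, trafficking genes from 1 to 3, estrogen targets from 3 to 6 and progesterone targets from 1 to 4. All genes called ranged from 1204 (without control uterus 2) to 2381, with 1248 without control uterus 3 and 1414 without control uterus 4. The additional member called was *Aqp3* without Cre-positive uterus 2 and *Aqp8* without Cre-positive uterus 1. The cause of these moves was not tested.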
